A study of Schmidtea mediterranea with 60 samples.

Results

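In tails of the planarian Schmidtea mediterranea, 36 of 36035 measured features kept about their starting level 6 hours after amputation and lay well below it at both 1 day and 2 days. Times are written as in the labels, with dpa for days and hpa for hours post amputation. The members were chosen on control tails alone, by log2(group mean + 10) at each time minus that at 0dpa. A feature needed a mean of 50 or more at any of the 4 times, a 6hpa difference under 0.5 in either direction, 1dpa and 2dpa differences of -0.5 or below, and the lower of these at -1 or below. There were 12868 features above that level, so the members made up 0.28% of them, and the limit of 200 in the rule was never reached. Among the 143 features that met the 1dpa and 2dpa conditions, 46 others were already lower at 6hpa by 0.5 or more and 61 were higher at 6hpa by 0.5 or more.

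Planarians rebuild missing body parts from dividing stem cells called neoblasts. Amputation is known to bring a wound response within hours, while formation of the new tissue and reshaping of the old fragment follow over days. Mitochondria in these and other cells divide and fuse all the time. Fusion of their inner membranes needs Opa1, a large GTPase. Division is carried out by Drp1, which assembles around the organelle and constricts it, and Sod2 is the enzyme that removes superoxide in the mitochondrial matrix.

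The tail groups were combined RNAi (labelled opa1;drp1), opa1 RNAi (opa1;egfp) and control (egfp;egfp), each taken at 0dpa, 6hpa, 1dpa and 2dpa. The whole-body groups were opa1, drp1, sod2 and control (egfp) RNAi, each taken at 1dpa and at a time labelled homo, which the sources used here do not explain. All 60 libraries, the controls included, came from RNAi animals: egfp, a jellyfish gene that the worm lacks, served as the control double-stranded RNA. Every group held 3 libraries, and the labels do not say whether a library was 1 animal or a pool, so the p-values reflect only the spread among these libraries, and that spread may be technical. The files give feature IDs without gene names or sequences, so the members go by their IDs, no function can be given for any of them, and neither the strength of each RNAi nor markers of tail or whole-body cell types were analysed here. In bulk tissue, fewer cells of a type and less RNA per cell cannot be told apart.

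The tail libraries summed to 8345030 to 14472000 scaled values and the whole-body libraries to 10611100 to 14328900 estimated counts. The 36 members together held 0.163% to 0.738% of a tail library and 0.212% to 0.783% of a whole-body library. All 36 passed the filters on low values in both experiments, which left 20681 features in tails and 22889 in whole bodies. Levels are given as scaled values in tails and as TMM-scaled CPM, the count of a feature relative to its library's total, in whole bodies, with the SD over n = 3 libraries. Fold changes are log2 differences on the log2(value + 1) scale in tails, from limma, and on the count scale in whole bodies, from edgeR's quasi-likelihood test, each with its SE. A feature is called when its Benjamini-Hochberg adjusted p over all features tested is under 0.05.

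The members spanned a wide range of abundance. Per transcript length, they ran from 1.02 to 1940 TPM, a length-scaled share of a library, in control whole bodies at homo, with a median of 23.3 over the 36. For the 27 members held in the tail TPM table, control tails at 0dpa ran from 2.45 to 583 TPM with a median of 21.8. SMED30029159 was the highest in whole bodies at 1940 ± 102 TPM, and SMED30021380 came next at 718 ± 56.1 TPM. SMED30021380 had only 20.1 ± 19.7 TPM in control tails, a level far below the 718 of whole bodies. SMED30009224 ran the other way, at 26.1 ± 2.23 TPM in control tails at 0dpa and 1.02 ± 0.937 TPM in control whole bodies at homo.

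In the control tails that chose the members, the median change on the rule's log2(mean + 10) scale was -0.19 at 6hpa, -0.78 at 1dpa and -1.26 at 2dpa. The medians of all 12868 features above the level limit lay between -0.10 and 0.03 in every tail arm at every time after 0dpa. These values describe the choice and are not tested. At 2dpa 25 members were lower than at 1dpa, and the other 11 were lowest at 1dpa.

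SMED30009224 had the lowest mean change of all members. Its control tails held 193, 154 and 160 at 0dpa, 225, 189 and 177 at 6hpa, 16.2, 9.97 and 10.9 at 1dpa, and 8.40 to 10.4 at 2dpa. The 6 late libraries all lay far below the 6 early ones. SMED30022217 was also low from 1dpa on, with 377, 353 and 409 at 0dpa, 236, 285 and 320 at 6hpa, 104, 108 and 120 at 1dpa, then 97.7, 106 and 169 at 2dpa. SMED30029159, the whole-body leader, held 13710, 13780 and 13273 at 0dpa, 18793, 12769 and 14637 at 6hpa, 8099, 5993 and 7007 at 1dpa, then 4937, 4773 and 5756 at 2dpa. No late library of SMED30029159 reached an early one, and its 2dpa libraries all lay below its 1dpa libraries.

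SMED30015036 and SMED30019172 were among the 11 with their lowest level at 1dpa. SMED30015036 held 200, 114 and 143 at 0dpa, 208, 133 and 123 at 6hpa, 46.3, 37.0 and 43.4 at 1dpa, then 92.3, 83.2 and 71.4 at 2dpa. Its 2dpa libraries all lay above its 1dpa libraries and below its 0dpa libraries. SMED30019172 held 344, 383 and 315 at 0dpa, 394, 314 and 313 at 6hpa, 143, 97.4 and 113 at 1dpa, then 164, 149 and 140 at 2dpa. Its 1dpa and 2dpa ranges overlapped slightly, and both lay below all of its early libraries.

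Some members varied widely between libraries of a group. SMED30021380 had 30.7, 55.1 and 208 at 0dpa, 242, 85.0 and 41.5 at 6hpa, 12.8, 68.5 and 0 at 1dpa, then 0.746, 0 and 0 at 2dpa, so that only the 2dpa libraries lay apart from 0dpa. SMED30033185 had 117, 107 and 32.9 at 1dpa against 125, 106 and 169 at 0dpa, with overlapping ranges. SMED30021552 had 218, 307 and 374 at 0dpa, 267, 115 and 186 at 1dpa, then 8.98, 19.5 and 89.5 at 2dpa, and only its 2dpa libraries lay apart from 0dpa.

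The members nearest the limits of the rule sat close to features just outside it. SMED30024487 was inside with a 6hpa change of -0.48, and SMED30020726 was outside with -0.51. SMED30007232 was inside with -1.01 as the lower of its 2 late changes, and SMED30034174 was outside with -0.99. SMED30020022 was inside with -0.53 at 1dpa, and SMED30034126 was outside with -0.50. The last members by the mean of both late changes were SMED30008017, SMED30020022 and SMED30005670, at -0.89, -0.80 and -0.79.

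**Figure D1:**
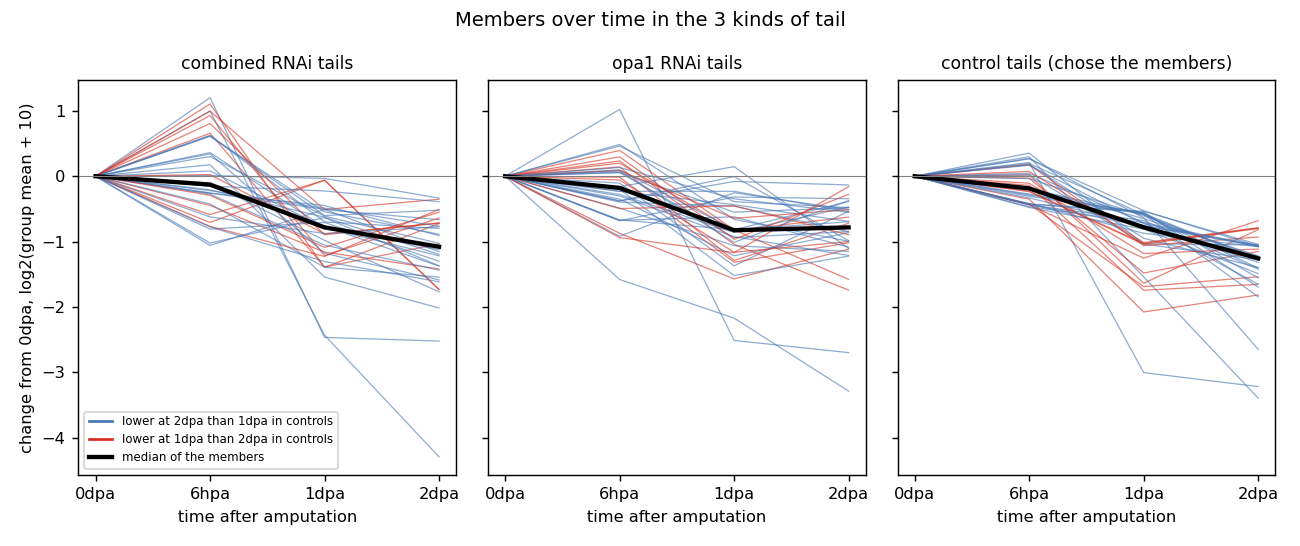
Change of each member from 0dpa of its own arm at 6hpa, 1dpa and 2dpa, on the log2(group mean + 10) scale, in combined RNAi, opa1 RNAi and control tails, with thin lines for the 36 members and a thick line for their median. At 2dpa every member lay below its own 0dpa level in both RNAi arms, with medians of -1.08 in combined RNAi and -0.78 in opa1 RNAi tails. Control tails, at a median of -1.26, chose the members, so their fall was fixed by the rule. Its size is not compared with the RNAi arms.

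The opa1 RNAi and combined RNAi tails were not used in the choice and have 0dpa libraries of their own, so the members can be read there independently of the choice. On the rule's scale, the median change at 1dpa was -0.78 in combined RNAi tails and -0.83 in opa1 RNAi tails, with 36 and 35 of 36 members below 0. At 2dpa it was -1.08 in combined RNAi tails and -0.78 in opa1 RNAi tails, with all 36 below 0 in both. The members were thus low at both late times in tails that had no part in choosing them.

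Tested with limma over all features, members fell in large shares in both RNAi arms at both late times, and none rose. With combined RNAi at 1dpa against 0dpa, 22 of 36 fell and 0 rose, where 4.18% of all features tested fell and 5.24% rose. The members' median was -0.93 and that of all features 0.06. Without combined RNAi 1dpa replicate 2 the count called was 14, and without any other single library it was 17 to 20. With combined RNAi at 2dpa, 27 of 36 fell and 0 rose, where 6.9% of all features fell and 10.2% rose, with a median of -1.22 against 0.09. With opa1 RNAi at 1dpa, 18 of 36 fell and 0 rose, where 13.8% of all features fell and 14.3% rose, with a median of -0.94 against 0.06. With opa1 RNAi at 2dpa, 18 of 36 fell and 0 rose, where 4.55% of all features fell and 5.62% rose, with a median of -0.83 against 0.05.

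All 36 members fell in at least 1 of these 4 comparisons: 9 in 1, 13 in 2, 6 in 3 and 8 in all 4. The shares of all features that fell in at least 1 or in all 4 were not counted, so these counts cannot be read as particular to the members. The combined and opa1 RNAi arms share no library.

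**Figure D2:**
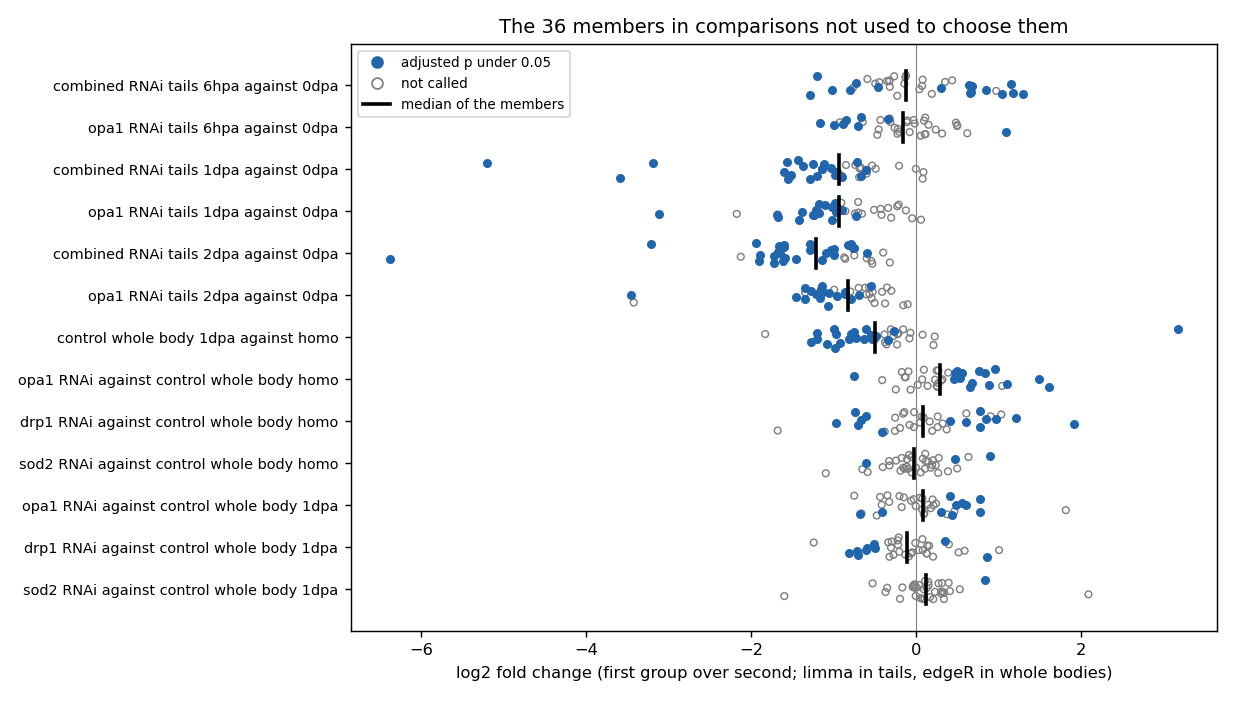
Log2 fold change of each of the 36 members, first group over second, in 13 comparisons of tails and whole bodies, with filled points for an adjusted p under 0.05, open points for the rest and a bar for the members' median. In the 4 late tail comparisons 18 to 27 members fell and none rose, with medians of -1.22 to -0.83, while RNAi against control in whole bodies spread to both sides of 0.

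SMED30009224 had the largest fall of the called members in opa1 RNAi tails at 2dpa and a fall of like size in combined RNAi tails. It held 7.72, 13.6 and 11.5 in combined RNAi tails at 2dpa against 116, 78.5 and 136 at their 0dpa, a change of -3.22 ± 0.30 (limma, adjusted p = 2.01e-09). It held 9.52, 6.77 and 12.7 in opa1 RNAi tails at 2dpa against 166, 89.4 and 97.8 at 0dpa, a change of -3.46 ± 0.30 (limma, adjusted p = 3.97e-10). Over all arms its late libraries lay at 6.77 to 18.3 and its early ones at 78.5 to 335.

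SMED30021380 had the largest fitted fall in combined RNAi tails at 2dpa, -6.38 ± 1.41 (limma, adjusted p = 0.0014), with a wide SE. Its combined RNAi tails held 0.853, 1.57 and 2.22 at 2dpa against 162, 167 and 321 at 0dpa. In opa1 RNAi tails it held 6.78, 4.46 and 0.724 at 2dpa against 2.92, 302 and 75.7 at 0dpa. The opa1 RNAi groups overlapped, and SMED30021380 was not called there.

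SMED30033809 fell in all 4 comparisons. It held 64.5, 62.1 and 57.7 in combined RNAi tails at 2dpa against 206, 190 and 199 at 0dpa (-1.68 ± 0.26, limma adjusted p = 1.96e-05), and 79.5, 123 and 64.4 in opa1 RNAi tails at 2dpa against 216, 211 and 236 at 0dpa (-1.35 ± 0.26, adjusted p = 0.000646). The members called in all 4 also included SMED30022217 at -1.46 in combined and -1.14 in opa1 RNAi tails at 2dpa, SMED30019172 at -1.10 and -1.07, SMED30029159 at -1.03 and -0.86, and SMED30032120 at -0.82 and -0.87. Each of these changes at 2dpa had an SE of 0.12 to 0.19. In both RNAi arms, every 2dpa library of SMED30033809, SMED30022217, SMED30019172, SMED30029159 and SMED30032120 lay below every 0dpa library of that arm. For SMED30032120, the RNAi tails held 207 to 283 at 2dpa in both arms and 359 to 515 at 0dpa.

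A few members had small changes at 2dpa in 1 RNAi arm, though each was called as lower elsewhere in the RNAi arms. SMED30033897 held 28.1, 44.8 and 31.2 in opa1 RNAi tails at 2dpa against 55.7, 22.9 and 38.4 at 0dpa, with overlapping groups. It fell in combined RNAi tails at 1dpa (-1.12, limma adjusted p = 0.0293) and at 2dpa (limma adjusted p = 0.0358). SMED30025761 held 176, 163 and 186 in opa1 RNAi tails at 2dpa against 225, 172 and 192 at 0dpa, after 66.6, 88.3 and 90.5 at 1dpa. It was thus low at 1dpa and close to its first level a day later. In combined RNAi tails, SMED30011308 held 519, 380 and 396 at 2dpa against 393, 651 and 597 at 0dpa, and SMED30004761 held 64.6, 50.3 and 72.2 against 56.8, 87.7 and 110. These members had the smallest 2dpa changes of their arm and were not called there. In opa1 RNAi tails at 2dpa both were called as lower, SMED30011308 at -0.69 (limma adjusted p = 0.0077) and SMED30004761 at -0.96 (limma adjusted p = 0.00524).

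**Figure D3:**
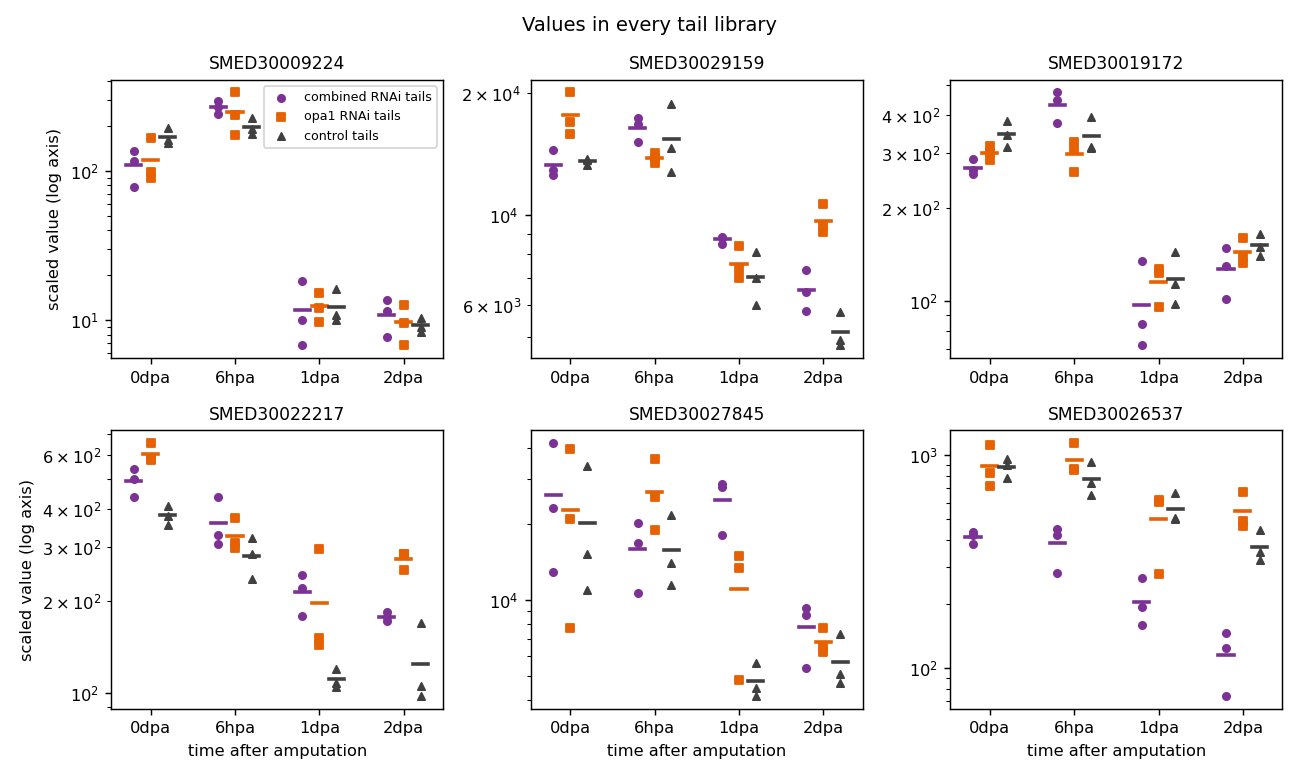
Scaled values of chosen members in each tail library on a log axis, by time from 0dpa to 2dpa, for combined RNAi (circles), opa1 RNAi (squares) and control tails (triangles), with bars for group means. SMED30009224 lies at 6.77 to 18.3 in all late libraries and at 78.5 to 335 in all early ones.

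At 6hpa, where the rule held control tails within 0.5 of their start, the RNAi arms were not so held. Members moved in both directions there, as all features did. Over both directions, a smaller share of members than of all features was called in each arm. In combined RNAi tails at 6hpa against 0dpa, 10 members rose and 6 fell, where 23.6% of all features rose and 29.2% fell. As shares, 27.8% of members rose and 16.7% fell, and the median was -0.13 for members and -0.19 for all features. With library totals set equal without the most abundant feature, which is no member, 7 rose and 10 fell, and the median of all features moved by -0.23. On the TPM table, 2 rose and 9 fell among 27 members. At 6hpa in opa1 RNAi tails, 1 member rose and 7 fell, where 18.4% of all features rose and 20.9% fell. Without opa1 RNAi 6hpa replicate 2 only 4 were called there, and without opa1 RNAi 6hpa replicate 3, or 0dpa replicate 1 or 3, there were 5.

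SMED30009224 rose at 6hpa in both RNAi arms before it fell. It held 240, 294 and 266 in combined RNAi tails at 6hpa against 116, 78.5 and 136 at 0dpa (1.30 ± 0.30, limma adjusted p = 0.00047). Its opa1 RNAi tails held 238, 175 and 335 at 6hpa against 166, 89.4 and 97.8 at 0dpa (1.08 ± 0.30, adjusted p = 0.00459). No 6hpa library lay below a 0dpa library in either arm. SMED30015036 rose in combined RNAi tails, at 289, 309 and 317 at 6hpa against 130, 167 and 112 at 0dpa (1.17 ± 0.24, limma adjusted p = 0.000104). Its opa1 RNAi tails held 132, 243 and 126 at 6hpa against 127, 157 and 166 at 0dpa, with overlapping groups and no call. SMED30025761 and SMED30022217 were early fallers in both RNAi arms, at -0.81 and -0.47 in combined and -0.99 and -0.90 in opa1 RNAi tails. Their control tails, just inside the limit of 0.5, also changed by -0.44 and -0.43 on the rule's scale. A difference from control tails was not tested. For SMED30022217 the combined RNAi groups overlapped.

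The change from 0dpa to 6hpa was also compared between the arms, in a comparison added after the values were seen. It was larger in combined than in opa1 RNAi tails for 5 members and smaller for 0, where 4.57% of all features had a larger change and 2.88% a smaller one. The 5 were SMED30015036 at 1.08 ± 0.34, SMED30014469 at 0.96 ± 0.30, SMED30004566 at 0.92 ± 0.26, SMED30029159 at 0.65 ± 0.17 and SMED30032120 at 0.58 ± 0.18, with limma adjusted p between 0.019 and 0.0474. The count rested on single libraries: it was 0 without opa1 RNAi 0dpa replicate 2, opa1 RNAi 6hpa replicate 1 or combined RNAi 6hpa replicate 2. It was 1 to 3 without 6 other libraries, which were opa1 RNAi 0dpa replicate 3, combined RNAi 0dpa replicates 2 and 3, opa1 RNAi 6hpa replicate 3, and combined RNAi 6hpa replicates 1 and 3.

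After 1dpa the members' course was compared within each RNAi arm, again in comparisons added after the values were seen. In combined RNAi tails at 2dpa against 1dpa, 5 members fell further and 2 rose, where 1.82% of all features fell and 4.42% rose. Their opa1 RNAi counterparts had 1 member that fell further and 4 that rose, where 5.57% fell and 8.05% rose. The splits moved with the scaling: with TPM values, held for 27 members, 0 fell and 2 rose for combined RNAi, and with TMM rescaling 0 fell and 5 rose for opa1 RNAi. Of the 25 members that were lower at 2dpa than at 1dpa in control tails, 23 were also lower at 2dpa than at 1dpa in combined RNAi tails and 16 in opa1 RNAi tails. Their median step on the rule's scale was -0.38 in combined RNAi and -0.09 in opa1 RNAi tails. In control tails it was -0.57, but the split was made on control tails and fixed the sign of that step. Its size is therefore not compared with the RNAi arms. Of the 11 members lower at 1dpa than at 2dpa in control tails, 8 kept that order in each RNAi arm. Their median steps were 0.18 in combined RNAi and 0.21 in opa1 RNAi tails. The control step of 0.23 was again fixed in sign by the split. The shares of all features that kept their order were not counted.

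SMED30029159 moved in opposite directions in the RNAi arms. Combined RNAi tails held 5810, 7323 and 6482 at 2dpa against 8858, 8807 and 8499 at 1dpa (-0.42 ± 0.12, limma adjusted p = 0.0249). Opa1 RNAi tails held 9397, 10628 and 9065 at 2dpa against 7365, 8401 and 7004 at 1dpa (0.35 ± 0.12, adjusted p = 0.0408). Neither pair of groups overlapped, and whether these changes differ was not tested. SMED30025761 came back up in both arms, by 0.84 ± 0.20 in combined RNAi (adjusted p = 0.00501) and 1.10 ± 0.20 in opa1 RNAi tails (adjusted p = 9.45e-05). The counts of these comparisons shifted when single libraries were left out. For combined RNAi, 7 were called in all, 1 without 1dpa replicate 1 or 2, and 3 without 2dpa replicate 1 or 2. For opa1 RNAi, 5 were called in all, 1 without 2dpa replicate 1, 2 without 2dpa replicate 2 or 1dpa replicate 1, and 3 without 2dpa or 1dpa replicate 3.

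The difference between the RNAi arms in their change from 0dpa to 2dpa, combined minus opa1 RNAi, was called by limma for 0 members and for 0% of all features. An unadjusted limma p under 0.05 was found for 6 members, and 27 of the 36 differences lay below 0. Neither count was made over all features, so no difference between the arms is read from them.

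Combined RNAi tails had drp1 double-stranded RNA where opa1 RNAi tails had egfp, so their contrast asks what drp1 RNAi adds to opa1 RNAi. Over the mean of the 4 times, 5 members were lower in combined RNAi tails and 0 were higher, where 0.977% of all features were lower and 0.808% higher. The members' median difference was -0.10 and that of all features 0.03. The 5 were SMED30026537, SMED30021068, SMED30030498, SMED30024487 and SMED30027621. The contrast alone cannot say which of these arms lay away from control tails, against which neither was tested.

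SMED30026537 stood furthest apart. Its combined RNAi tails held 423, 384 and 438 at 0dpa, 453, 280 and 424 at 6hpa, 193, 159 and 264 at 1dpa, then 73.8, 146 and 124 at 2dpa. Its opa1 RNAi tails held 828, 720 and 1120 at 0dpa, 851, 1143 and 864 at 6hpa, 620, 277 and 603 at 1dpa, then 492, 676 and 468 at 2dpa. At each time every combined RNAi library lay below every opa1 RNAi library, and the mean difference was -1.47 ± 0.12 (limma, adjusted p = 1e-10). The level in combined RNAi tails was already low at 0dpa and was lower still at 2dpa. Control tails, for description, averaged 373 ± 66.3 at 2dpa against 880 ± 91.6 at 0dpa.

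SMED30021068 averaged 254 ± 32.7 in combined and 526 ± 135 in opa1 RNAi tails at 0dpa, and 77.9 ± 23.7 in combined and 404 ± 53.7 in opa1 RNAi tails at 2dpa. Its mean difference was -1.33 ± 0.14 (limma, adjusted p = 2.37e-08). Its control tails, for description, averaged 202 ± 43.4 at 2dpa, between both RNAi arms. SMED30030498 held 80.8, 105 and 106 in combined against 235, 161 and 219 in opa1 RNAi tails at 0dpa, with a mean difference of -0.96 ± 0.13 (adjusted p = 6.95e-06). SMED30027621 differed by -0.70 ± 0.14 (adjusted p = 0.0026), mostly late, at 14.2, 10.2 and 18.6 in combined against 33.0, 41.6 and 48.1 in opa1 RNAi tails at 2dpa. SMED30024487 differed by -0.74 ± 0.18 (adjusted p = 0.02), and without combined RNAi 1dpa replicate 2 by -0.64 (adjusted p = 0.0511). Control tails chose the members, so their low 2dpa level was fixed by the rule and is given for description only. At 2dpa SMED30027621 held 8.25 to 10.98 in control tails. SMED30024487 held 12.1 to 19.9 in control, 11.3 to 12.6 in combined and 29.3 to 42.5 in opa1 RNAi tails. SMED30030498 held 30.3 to 62.8, 32.6 to 42.6 and 67.3 to 113 in that order. For these members combined RNAi tails lay nearer to control than opa1 RNAi tails did.

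The whole-body experiment shares no library with the tails. In control whole bodies at 1dpa against homo, 19 of 36 members were lower and 1 was higher, where 8.89% of all features were lower and 9.83% higher. The members' median was -0.50 on the count scale, and that of all features 0.01.

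The largest called falls in control whole bodies were those of SMED30027621 and SMED30030498. SMED30027621 held 7.78, 8.51 and 8.15 CPM at 1dpa against 23.6, 15.3 and 20.4 CPM at homo (-1.28 ± 0.17, edgeR adjusted p = 2.88e-06). SMED30030498 held 10.3, 10.7 and 15.6 CPM at 1dpa against 34.2, 23.1 and 27.4 CPM at homo (-1.21 ± 0.14, edgeR adjusted p = 2.18e-07). For both, every 1dpa library lay below every homo library. SMED30014469 was lower by -0.99, SMED30015036 by -0.80 and SMED30019172 by -0.74. SMED30029159 was lower by only -0.27 ± 0.09 (edgeR adjusted p = 0.0298).

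The single rise was that of SMED30009224, the member with the lowest mean late change in control tails. It held 3.34, 6.13 and 6.53 CPM in control whole bodies at 1dpa against 0.241, 0.346 and 1.16 CPM at homo (3.17 ± 0.50, edgeR adjusted p = 2.63e-05). All 1dpa libraries lay above all homo libraries, at levels of a few CPM at most.

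With opa1 RNAi, whole bodies at homo held 14 members above control and 1 below, where 19.2% of all features were higher and 15.6% lower. The members' median difference was 0.28 and that of all features -0.02. SMED30022217 held 46.5, 45.8 and 39.0 CPM with opa1 RNAi against 13.4, 18.2 and 11.6 CPM in control (1.60 ± 0.15, edgeR adjusted p = 3.98e-09). SMED30029159 held 1189, 1122 and 1175 CPM with opa1 RNAi against 586, 547 and 497 CPM in control (1.10 ± 0.09, adjusted p = 2.61e-10). Both groups of libraries were fully apart for these members. SMED30009224 was higher by 1.48 ± 0.57 (adjusted p = 0.0433), a call lost without control homo replicate 1 or 2 or opa1 RNAi homo replicate 1 or 3, with differences of 1.11 to 1.46. The single lower member was SMED30000639, at 13.1, 11 and 14.2 CPM with opa1 RNAi against 18.8, 18.8 and 26.8 CPM in control (-0.75 ± 0.19, edgeR adjusted p = 0.00258).

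At 1dpa, opa1 RNAi whole bodies held 8 members above control and 2 below, where 4.57% of all features were higher and 6.64% lower. SMED30030498 held 22.8, 18.6 and 21.5 CPM with opa1 RNAi against 10.3, 10.7 and 15.6 CPM in control (0.78 ± 0.14, edgeR adjusted p = 0.000259). SMED30008017 held 31.8, 39.7 and 48.9 CPM with opa1 RNAi against 57.9, 63.2 and 72.1 CPM in control (-0.68 ± 0.11, adjusted p = 8.55e-05). These 2 members were thus opposite at the same time, each without overlap. SMED30004060 was higher by 0.77 and SMED30032120 lower by -0.41. The call of SMED30004060 was lost without control 1dpa replicate 1 (0.57) or 2 (0.61). That of SMED30032120 was lost without control 1dpa replicate 2 (-0.38) or 3 (-0.32) or opa1 RNAi 1dpa replicate 2 (-0.30). The count of 10 called became 5 without control 1dpa replicate 1. It was 6 when control 1dpa replicate 2 or 3, or opa1 RNAi 1dpa replicate 1 or 3, was left out.

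The opa1 RNAi effect itself moved between the times for some members, as it did for many features. Tested as an interaction, the difference from control was more negative at 1dpa than at homo for 9 members and more positive for 1, where 15.7% of all features moved down and 12.8% up. Over both directions, the share of members called was close to that of all features, so such movement was not particular to the members. Their calls were mostly downward, while those of all features were more evenly split. For SMED30029159, at 521, 373 and 525 CPM with opa1 RNAi at 1dpa against 472, 437 and 441 CPM in control, the effect changed from homo by -1.02 ± 0.13 (edgeR adjusted p = 5.4e-07). For SMED30022217, at 15.7, 11.4 and 16.2 CPM with opa1 RNAi against 10.7, 11.3 and 14.7 CPM in control, it changed by -1.37 ± 0.22 (adjusted p = 2.28e-05). In both the libraries of opa1 RNAi and control overlapped at 1dpa.

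With drp1 RNAi, whole bodies at homo held 8 members above control and 6 below, where 13.7% of all features were higher and 10.5% lower. At 1dpa they held 2 above and 7 below, where 3.83% were higher and 3.36% lower. There were 7 members called at both times, each in the same direction, which is 7 of the 14 called at homo and 7 of the 9 called at 1dpa. The share of all features called at both times was not counted, so these 7 cannot be read as particular to the members. The homo and 1dpa groups share no library. SMED30026537, SMED30021068, SMED30024487, SMED30025761 and SMED30000639 were lower at both times, and SMED30005670 and SMED30011308 were higher. Of the calls followed with each library left out, those of SMED30011308 at 1dpa and SMED30000639 at homo were lost without a single library. The calls of SMED30021068, SMED30024487 and SMED30025761 were not followed in this way, nor were SMED30011308 at homo and SMED30000639 at 1dpa. SMED30021068 overlapped at homo, at 44.9, 37.9 and 43.1 CPM with drp1 RNAi against 66.7, 44.1 and 57.1 CPM in control. SMED30000639 lost it without control homo replicate 3 (-0.57, adjusted p = 0.0554). SMED30011308 lost it without control 1dpa replicate 2 or 3 or drp1 RNAi 1dpa replicate 1 or 3, with differences of 0.23 to 0.36, and also when only the libraries compared were fitted (0.33, edgeR adjusted p = 0.0904).

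SMED30026537 held 60.3, 43.9 and 57.4 CPM with drp1 RNAi against 117, 102 and 97.9 CPM in control at homo (-0.97 ± 0.11, edgeR adjusted p = 2.09e-07). At 1dpa it held 40.3, 34.6 and 43.2 CPM with drp1 RNAi against 71.2, 63.2 and 74.2 CPM in control (-0.82 ± 0.11, adjusted p = 9.98e-06). The drp1 RNAi libraries lay below all control libraries at both times, as the combined RNAi tails lay below the opa1 RNAi tails. Of the 5 members lower in combined than in opa1 RNAi tails, 3 were also among the 6 lower with drp1 RNAi at homo. They were SMED30026537, SMED30021068 and SMED30024487, at -0.97, -0.41 and -0.67 in whole bodies and -1.47, -1.33 and -0.74 in tails. The share of all features lower in both comparisons was not counted. SMED30026537 and SMED30021068 also varied together within groups, so they may not be separate cases. For SMED30021068 and SMED30030498, opa1 RNAi alone was above control in whole bodies, by 0.65 and 0.75 at homo and by 0.47 and 0.78 at 1dpa. In these comparisons opa1 and drp1 RNAi were each set against the same control libraries.

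SMED30005670 was higher at both times with drp1 RNAi. It held 714, 583 and 706 CPM with drp1 RNAi against 350, 395 and 286 CPM in control at homo (0.96 ± 0.10, edgeR adjusted p = 1.88e-08). At 1dpa it held 529, 567 and 507 CPM with drp1 RNAi against 264, 318 and 306 CPM in control (0.85 ± 0.10, adjusted p = 3.68e-07). In tails at 0dpa it held 6512, 4885 and 3194 in combined against 2327, 3149 and 1835 in opa1 RNAi tails, without overlap. By 2dpa it held 1105, 1990 and 1646 in combined against 1607, 2785 and 1362 in opa1 RNAi tails, where the libraries overlapped. It fell in combined RNAi tails at 2dpa against 0dpa (-1.60 ± 0.27, limma adjusted p = 5.65e-05) and was not called in opa1 RNAi tails.

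**Figure D4:**
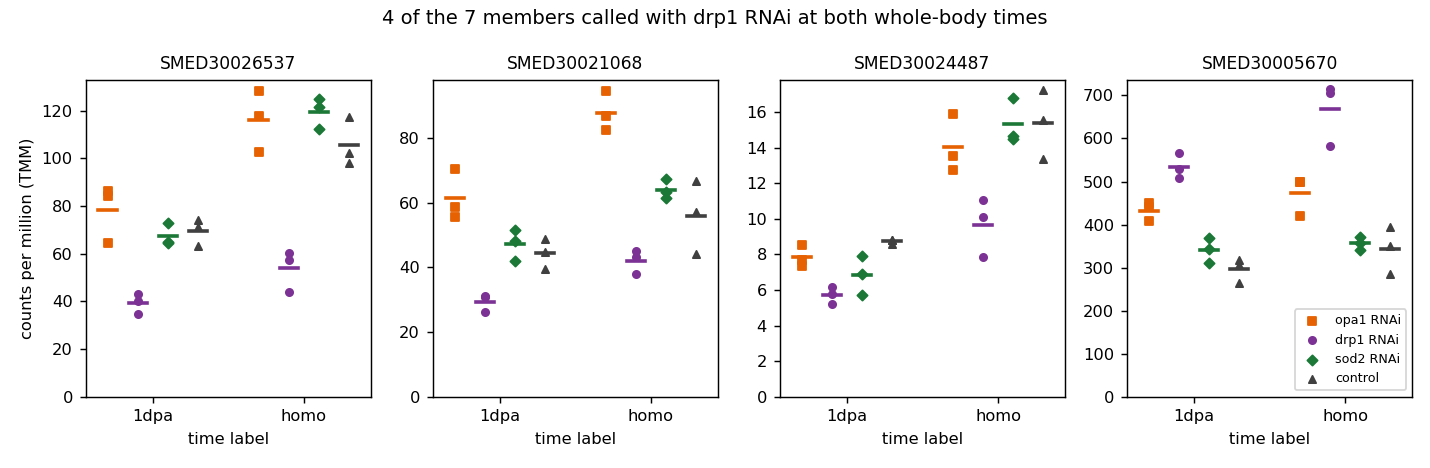
TMM-scaled CPM in each whole-body library at 1dpa and homo, with opa1, drp1, sod2 and control RNAi from left to right and bars for means, for 4 of the 7 members called with drp1 RNAi at both times. SMED30026537 lies at 34.6 to 60.3 CPM with drp1 RNAi and at 63.2 to 117 CPM in control, while SMED30005670 lies at 507 to 714 CPM and 264 to 395 CPM.

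The drp1 RNAi effect was more negative at 1dpa than at homo for 7 members and more positive for 0, where 2.89% of all features moved down and 1.03% up. SMED30009224 moved by -3.16 ± 0.68 (edgeR adjusted p = 0.00704). It held 2.55, 0.847 and 3.37 CPM with drp1 RNAi against 3.34, 6.13 and 6.53 CPM in control at 1dpa. At homo it held 2.19, 3.49 and 1.14 CPM with drp1 RNAi against 0.241, 0.346 and 1.16 CPM in control, so the order of the group means turned round between the times. SMED30033185 moved by -1.44 ± 0.30 (adjusted p = 0.00459). It held 58.7, 43.0 and 34.2 CPM with drp1 RNAi against 38.1, 40.6 and 80.2 CPM in control at 1dpa, with overlap, and 151, 127 and 109 CPM with drp1 RNAi against 73.2, 53.3 and 40.6 CPM in control at homo, without overlap. The count of 7 became 3 without control homo replicate 3 or drp1 RNAi homo replicate 3. It became 4 without drp1 RNAi homo replicate 1, control 1dpa replicate 3, or drp1 RNAi 1dpa replicate 2 or 3.

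With sod2 RNAi few members differed from control. At homo 2 were higher and 1 lower, where 2.15% of all features were higher and 1.61% lower, and without sod2 RNAi homo replicate 3 only 1 was called. SMED30022217 held 26.3, 31.3 and 22.5 CPM with sod2 RNAi against 13.4, 18.2 and 11.6 CPM in control (0.89 ± 0.15, edgeR adjusted p = 0.000782). SMED30011308 was higher by 0.46 (adjusted p = 0.00788), and without sod2 RNAi homo replicate 3 by 0.42 (adjusted p = 0.0519). SMED30007232 was lower by -0.61 (adjusted p = 0.0408), a call lost without any 1 of 5 of the 6 libraries compared, the exception being control homo replicate 2. At 1dpa 1 member was higher and 0 lower, where 0.214% of all features were higher and 0.179% lower. It was SMED30027621, at 15.3, 13.6 and 14.7 CPM with sod2 RNAi against 7.78, 8.51 and 8.15 CPM in control (0.84 ± 0.18, edgeR adjusted p = 0.0152). That call was lost without any of the control libraries or sod2 RNAi replicate 1 or 3, with differences of 0.80 to 0.87. The change of the sod2 RNAi effect between the times was called by edgeR for 0 members, where 0.083% of all features moved up and 0.0612% down. An unadjusted edgeR p under 0.05 was found for 8 members, a count not made over all features.

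A few pairs of members varied together within groups in both experiments. Over the 630 pairs of members, the median correlation of deviations from group means was 0.04 across the 24 whole-body libraries and 0.05 across the 24 RNAi tail libraries. A single pair, found by this search, was above 0.7 in both: SMED30027845 and SMED30027385, at 0.988 in whole bodies and 0.972 in RNAi tails. Next came SMED30019172 with SMED30026537, at 0.685 in whole bodies and 0.782 in RNAi tails. SMED30021068 varied with both of these, at 0.624 and 0.610 in whole bodies and 0.729 and 0.872 in RNAi tails. SMED30033185 and SMED30004060 were at 0.621 in whole bodies and 0.769 in RNAi tails. The libraries share scaling and depth, and whether reads are split between near-identical copies was not tested.

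Both members of the closest pair varied together from library to library. SMED30027845 held 23047, 12828 and 41831 in combined RNAi tails at 0dpa, where SMED30027385 held 1828, 946 and 3450. The tail value of SMED30027845 ranged over 8.69-fold among the RNAi tail libraries while its ratio to SMED30027385 stayed between 10.5 and 16.6. In control tails the level ranged over 8.21-fold and the ratio lay between 9.75 and 15.6, and in whole bodies 10.8-fold and between 12.8 and 18.4. These ranges run over all libraries named, across groups and within them.

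In combined RNAi tails the pair was still high at 1dpa. SMED30027845 held 9244, 5376 and 8668 there at 2dpa against 28701, 27920 and 18067 at 1dpa, a step of -1.69 ± 0.43 (limma, adjusted p = 0.0124). Without combined RNAi 1dpa replicate 1 or 2, only 1 member was called in that comparison. Its control tails, for description, held 4478, 4143 and 5619 at 1dpa. In opa1 RNAi tails it held 6464, 6205 and 7715 at 2dpa against 13401, 14926 and 4814 at 1dpa, with overlap. From 0dpa to 2dpa it fell by 1.61 ± 0.43 in combined RNAi (adjusted p = 0.00784) and by 1.46 ± 0.43 in opa1 RNAi tails (adjusted p = 0.0267).

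**Figure D5:**
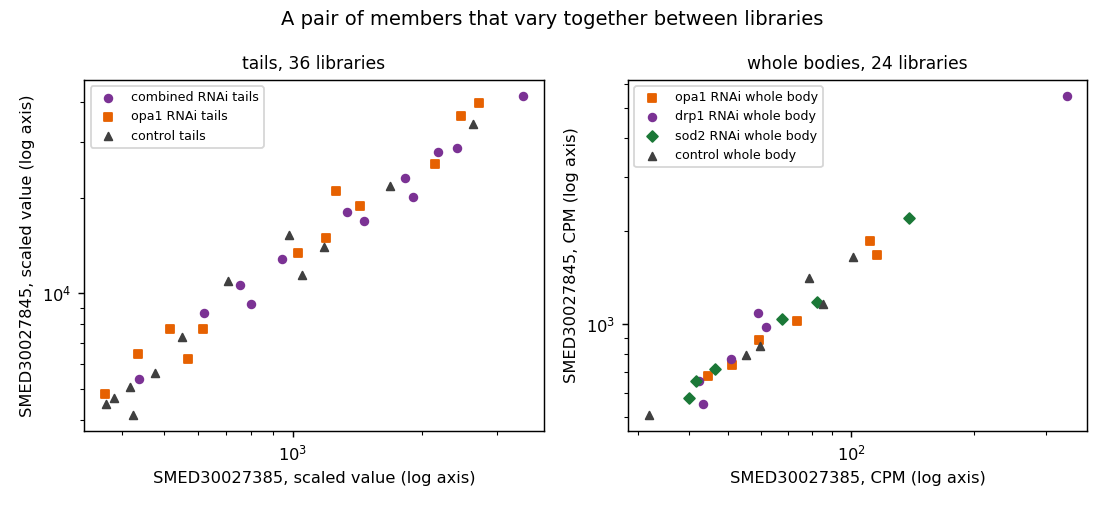
SMED30027845 (vertical) against SMED30027385 (horizontal) on log axes, 1 point a library, in scaled values for 36 tail libraries and in CPM for 24 whole-body libraries, with colours and shapes for the RNAi. The libraries lie along a band, and the ratio of the pair lay at 9.75 to 16.6 in the tail libraries against 12.8 to 18.4 in the whole-body libraries.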

How the data were processed

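The 36 tail and 24 whole-body RNA-seq libraries were made, per the labels' protocols, from 400 ng of total RNA extracted with TRIGene reagent, with an NEBNext Ultra kit. The whole-body table holds the authors' estimated counts, which the deposited table's name credits to kallisto. The tail table holds a signal, values the authors deposited already scaled between libraries by an unstated method. The authors' deposited TPM tables gave levels per length and 1 alternative, and the tail TPM table ends at 27444 features, 27 of the 36 members. The sources used here name no aligner version, index or build.

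The members and lists were chosen with earlier results of these data known. Whole-body counts were rounded and tested with edgeR 4.0.16 (TMM, its low-count filter, quasi-likelihood test, 8 groups together). The design planned the same test for tails, but their values are not counts, and whole reads could not be recovered from them. They were tested with limma 3.58.1 (mean-dependent prior, 12 groups together) on log2(value + 1), for features that reached 10 in 3 libraries or more. A fold change on that scale understates the change of low features. There were 11 tail and 10 whole-body comparisons, adjusted by Benjamini-Hochberg within each, of which 3 tail comparisons were added after the values were seen. The SE of an edgeR change is its size over the root of the F statistic. Both fits recovered known changes on simulated data. The simulated falls were larger than most changes given here, so recovery of smaller changes was not tested. Comparisons among control tails, and of RNAi against control tails, were not tested because control tails chose the members.

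Named members were the 10 with the lowest mean late change, the 5 most abundant in control tails at 0dpa, the 2 largest called falls and rises without overlap in each comparison named in the rule, the 2 smallest 2dpa changes in each RNAi arm, and features next to a limit of the rule. Of the 36, 26 fell under it. Members named beyond it, among them the calls of the added comparisons and of the interactions, were chosen after their values were seen. Alternatives were another pseudocount, no low-value filter, other scalings, DESeq2 1.42.0, fits on only the libraries compared, a replicate block, the rule with log2(mean + 1), and leaving out each library.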

Additional observations from a re-analysis of the deposited data

Results flagged for a closer look

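The values here were singled out because an RNAi effect or a change over time differed between 2 times or 2 arms by a test of the difference itself. Each is a log2 difference with an adjusted p under 0.05. The change from 0dpa to 6hpa was larger in combined than in opa1 RNAi tails by 1.08 for SMED30015036, 0.96 for SMED30014469, 0.92 for SMED30004566, 0.65 for SMED30029159 and 0.58 for SMED30032120 (limma). The opa1 RNAi effect in whole bodies was different at 1dpa than at homo (edgeR) by -2.23 for SMED30009224, -1.40 for SMED30033185, -1.37 for SMED30022217, -1.15 for SMED30008017, -1.02 for SMED30029159, -0.98 for SMED30018561, -0.94 for SMED30020964, -0.66 for SMED30032120, -0.58 for SMED30004566 and 0.37 for SMED30019172. The drp1 RNAi effect was different at 1dpa than at homo (edgeR) by -3.16 for SMED30009224, -1.44 for SMED30033185, -0.91 for SMED30018561, -0.82 for SMED30022217, -0.72 for SMED30029159, -0.63 for SMED30021380 and -0.55 for SMED30008017. Both RNAi effects are set against the same control libraries, so the lists are not independent of each other. The cause of these differences was not tested.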

How the results depend on the processing

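Counts are members called out of 36, in both directions together, unless stated. The shares of all features called under the alternatives are not given, here or above. These counts therefore show only how far the number of members called moved. With members chosen on log2(mean + 1) there were 57, of which 13 were called in opa1 RNAi tails at 6hpa and 28 at 1dpa, 31 with opa1 and 22 with drp1 RNAi in whole bodies at homo, 16 with opa1 and 2 with sod2 RNAi at 1dpa, and 22 for the change of the opa1 RNAi effect. On the TPM table, with 27 members, there were 5, 10 and 7 in opa1 RNAi tails at 6hpa, 1dpa and 2dpa, 14 and 15 in combined RNAi tails at 1dpa and 2dpa, 1 and 2 for 2dpa against 1dpa in opa1 and combined RNAi tails, and 0 for the change to 6hpa between the arms. With no filter on low values the last 3 were 1, 4 and 2, and without the most abundant feature in the totals the change to 6hpa gave 2. On only the libraries compared, the change to 2dpa between the arms gave 1, opa1 RNAi 2dpa against 1dpa 2, the change to 6hpa 3, the change of the drp1 RNAi effect 3, and sod2 RNAi at 1dpa 3. DESeq2 gave 2 for sod2 RNAi at 1dpa and 1 for the change of its effect, and no filter on low counts 4 and 3. The other counts stayed within 1.5 times under these settings.

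Leaving out 1 library at a time gave 4 to 8 in opa1 RNAi tails at 6hpa, 14 to 20 in combined RNAi tails at 1dpa, 1 to 5 and 1 to 7 for 2dpa against 1dpa in opa1 and combined RNAi tails, and 0 to 5 for the change to 6hpa between the arms. In whole bodies it gave 5 to 7 for opa1 RNAi at 1dpa, 1 to 4 and 0 to 1 for sod2 RNAi at homo and 1dpa, and 3 to 7 and 0 to 1 for the change of the drp1 and sod2 RNAi effects. Direction turned in 4 values of uncalled changes at 2dpa: SMED30011308 in combined (0.022) and SMED30025761 in opa1 RNAi tails (0.093) on the TPM table, and SMED30033897 in opa1 RNAi tails when 1 library was left out, where it ran from -0.43 to 0.19 (0.19 without opa1 RNAi 0dpa replicate 1 and 0.027 without 2dpa replicate 1). The cause was not tested.

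The members' median stayed below 0 under every alternative tried, at -0.70 or lower in combined and -0.60 or lower in opa1 RNAi tails at 1dpa, and at -0.71 or lower in combined and -0.44 or lower in opa1 RNAi tails at 2dpa. The TPM table moved the median of all features by up to 0.26. A fit with a replicate block moved no count by over 1.5 times, for example 22 in combined RNAi tails at 1dpa. Same-numbered libraries did not deviate together, with a mean correlation of 0.00088 in tails and 0.012 in whole bodies, so the numbers were not taken as pairs. The rule with a limit of 100 members selects the same 36 and gives no other value. Depth is known for whole bodies only, and 3 libraries a group limit which small changes can be called.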
